A study of Mus musculus with 4 samples.

Results

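Collagens are the main structural proteins of the extracellular matrix, and the promoters of 43 collagen genes were followed here through a left ventricular ChIP-seq data set for acetylated histone H3. The genes were all those whose symbol is Col, a type number, the letter a and a chain number, among the 23631 genes represented in a deposited table of promoter read counts. They are covered by 50 of its 31594 RefSeq IDs, and for a gene with several IDs the one with the most counts on average was kept. Of the 43 genes, 11 encode fibrillar collagens, 8 basement membrane collagens (6 of type IV and the multiplexins Col15a1 and Col18a1) and 24 other collagens. All 43 passed the filter of a mean of at least 10 counts, as did 22835 genes in all.

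The tissue was the left ventricle of male C57BL6 mice, given in the labels as 10 to 12 weeks old. Surgery and injection formed 4 groups with 1 library each. TAC TSA mice had transverse aortic constriction (TAC), which loads the ventricle with pressure, and received TSA (trichostatin A, which blocks histone deacetylases) dissolved in DMSO. TAC Veh mice had the same surgery and received DMSO alone (vehicle, Veh). Sham TSA and Sham Veh mice had a control operation with TSA or with DMSO alone. Injections under the skin were given 2 times a day for 4 weeks, at 0.6 mg per kg per day. The sources used here do not say how many mice stand behind each library. No value below has a replicate, so every pairwise comparison is between libraries and not between conditions.

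Collagen chains wind around each other in groups and are secreted as procollagen. Fibrillar collagens such as types I, III and V are cut by proteases outside the cell, assemble into fibrils and are cross-linked by lysyl oxidases. In the heart these fibrils come mostly from fibroblasts, and they accumulate in the fibrosis that follows pressure overload. Type IV collagen forms the network of basement membranes around cardiomyocytes and vessels, and type VI collagen forms microfibrils next to it. Acetylation of histone H3 at a promoter is a mark of active chromatin and is not a measure of RNA or of protein.

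The RefSeq promoter table of the GRCm38.p6 build held a window, from 250 bases before to 50 bases after the start, for 35 of the 43 genes, 38 windows in all. The genes without one were Col1a1, Col2a1, Col4a3, Col5a2, Col9a3, Col14a1, Col22a1 and Col26a1. The deposited counts use the mm9 build and their own window, so these sequences show what lies at the gene starts and not the counted intervals. Of these, 4 are shown because they carry the contrasts in level and response described below, with matches on either strand to the CCAAT box, to the TATA box searched as TATAAA and to the GC box searched as GGGCGG in capitals. Col1a2, at chr6:4505368-4505667 on the plus strand, encodes a chain of type I collagen. Col3a1, at chr1:45311288-45311587 on the plus strand, encodes type III collagen. Col4a1, at chr8:11312777-11313076 on the minus strand, encodes a type IV chain, and the start of Col4a2 lies 21 bases away on the opposite strand. Col15a1, at chr4:47207762-47208061 on the plus strand, encodes type XV collagen.
Col1a2: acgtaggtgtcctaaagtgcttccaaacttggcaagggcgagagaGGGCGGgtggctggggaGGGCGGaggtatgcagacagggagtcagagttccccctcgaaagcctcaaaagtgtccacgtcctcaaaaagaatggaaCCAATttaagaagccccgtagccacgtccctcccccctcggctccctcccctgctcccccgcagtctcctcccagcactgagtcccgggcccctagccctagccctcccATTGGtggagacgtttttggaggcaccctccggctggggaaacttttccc
Col3a1: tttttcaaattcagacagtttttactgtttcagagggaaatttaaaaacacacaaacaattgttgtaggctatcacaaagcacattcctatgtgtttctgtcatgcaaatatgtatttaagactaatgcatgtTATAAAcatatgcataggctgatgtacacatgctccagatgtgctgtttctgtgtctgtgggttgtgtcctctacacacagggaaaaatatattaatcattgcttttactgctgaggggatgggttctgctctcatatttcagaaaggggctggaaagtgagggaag
Col4a1: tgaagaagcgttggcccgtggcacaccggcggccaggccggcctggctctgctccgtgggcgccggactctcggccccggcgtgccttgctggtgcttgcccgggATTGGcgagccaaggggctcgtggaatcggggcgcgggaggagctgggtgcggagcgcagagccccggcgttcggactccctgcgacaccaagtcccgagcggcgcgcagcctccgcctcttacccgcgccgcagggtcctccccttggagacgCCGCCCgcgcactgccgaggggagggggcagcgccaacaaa
Col15a1: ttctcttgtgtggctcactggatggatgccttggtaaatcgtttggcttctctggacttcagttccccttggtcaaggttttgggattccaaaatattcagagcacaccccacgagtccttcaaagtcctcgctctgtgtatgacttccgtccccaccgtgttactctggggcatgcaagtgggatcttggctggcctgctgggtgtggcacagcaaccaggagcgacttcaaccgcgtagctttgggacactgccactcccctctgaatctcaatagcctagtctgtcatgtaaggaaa
The Col4a1 window held 37 CpG sites and had 74% G and C, whereas the Col3a1 window held 0 CpG sites and had 37.7% G and C. Col1a2 held 13 CpG sites and Col15a1 held 8, beside a median of 7 over all 32851 RefSeq windows. The CCAAT box was matched in 13 of 38 collagen windows (34.2%) and in 37.4% of all windows. The TATA box was matched in 5 collagen windows (13.2%) and in 13.6% of all windows. The GC box was matched in 23 collagen windows (60.5%), among them 6 of 8 fibrillar windows, and in 35.7% of all windows. Collagen windows also had more G and C, with a median of 59.8% against 52.7% in all windows. The part of this composition in the GC box matches was not tested. A match is a description of letters and not evidence of a bound factor.

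Sequencing depth and background bear on every value. Total promoter counts ranged from 6842296 in TAC TSA to 9905553 in Sham TSA. Promoters of 1461 olfactory and vomeronasal receptor genes, which the heart is not known to use, gave an estimate of background. Their share was 0.680% of all gene counts in TAC TSA, 0.507% in TAC Veh, 0.428% in Sham TSA and 0.422% in Sham Veh, so the 2 TAC libraries carried more background than the sham ones. Each sham library, unlike the TAC libraries, is tied by its description to an earlier deposit, so any difference between the deposits cannot be told apart from surgery. Cardiomyocyte marker promoters were above the middle of all genes for most markers, with the cardiac troponins Tnni3 at percentile 80.6 of mean level and Tnnt2 at 76.7, while Nppa was at 33.6.

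Collagen promoters covered a wide range of acetylation. Levels are given as CPM, counts relative to library size after TMM scaling in edgeR, averaged over the 4 libraries. Genes are compared per promoter, because the length of the counted window is unknown. Col4a1 and Col4a2, the ubiquitous type IV chains of basement membranes, were the highest at 204.5 CPM each, percentile 99.9 of all genes tested. They had 1037 and 1036 counts in TAC TSA, 1392 and 1393 in TAC Veh, 1350 each in Sham TSA and 1346 each in Sham Veh. The 2 genes start back to back and their counts are nearly the same reads, so they count as 1 measurement. Next came Col5a1, a chain of the type V collagen that starts fibrils, at 70.3 CPM (percentile 75.7), Col15a1 at 65.1 CPM (percentile 71.7), Col16a1, a fibril-associated collagen, at 57.2 CPM and Col27a1, a fibrillar collagen of cartilage, at 55.6 CPM.

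The major fibrillar collagens of heart were at middling levels. Col1a1 stood at 44.3 CPM (percentile 55.2), Col5a2 at 36.2 (49.9) and Col3a1 at 26.8 CPM (43.0), while Col1a2 was at percentile 46.3. Class by class, the median percentile was 46.3 for fibrillar, 49.4 for basement membrane and 41.7 for other collagens, and 45.1 for all 43. The other paired type IV genes were far below Col4a1 and Col4a2. Col4a3 and Col4a4, chains of the kidney glomerular membrane, were at 35.5 and 35.6 CPM and had counts within 1 read of each other in every library. Col4a5 and Col4a6, on chromosome X, were at 19.7 and 18.4 CPM and also had similar counts, although their RefSeq windows do not overlap. Whether they share reads cannot be told, because the counted window is unknown. Type IV may therefore give as few as 3 separate measurements rather than 6.

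The lowest collagen promoters were close to background. The 95th percentile of receptor promoters was 50 counts in TAC TSA, 53 in TAC Veh, 51 in Sham TSA and 52 in Sham Veh. Of the 43 genes, 39 exceeded it in all 4 libraries. The median count over all genes was also above it, at 169 in TAC TSA, 213 in TAC Veh, 235 in Sham TSA and 231 in Sham Veh. The share of all genes above it in every library is not given here, so the 39 do not set collagens apart. The exceptions among the 43 were Col9a1, above it in 1 library, and Col6a4, Col10a1 and Col28a1, each above it in 2. Col9a1 and Col10a1 belong to cartilage collagens. Their ratios below therefore rest on counts that background can supply.

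**Figure D1:**
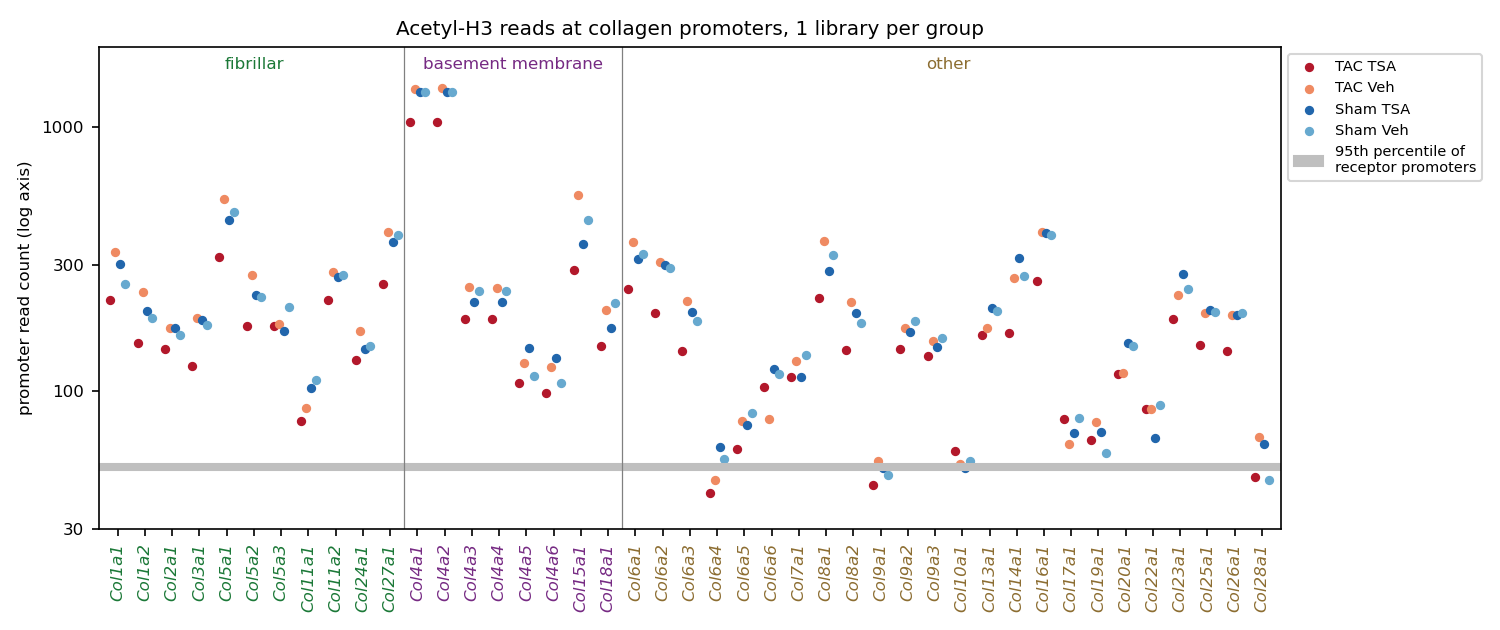
Read count of each collagen promoter in the 4 libraries (log axis), grouped by class, with the range of the 95th percentile of receptor promoters as a grey band. Col4a1 and Col4a2 are the highest in every library, while Col6a4, Col9a1, Col10a1 and Col28a1 lie at the band.

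Over the 35 genes with a window, those with more CpG sites had higher levels (Spearman's rho 0.60 across 35 genes). This is a description, since all points share the same 4 libraries. Col4a1 and Col4a2, with 37 and 33 CpG sites, enter it as separate points although their counts are nearly the same reads. The windows also differed in G and C content, from 37.7% for Col3a1 to 75% for Col5a1, and its part was not tested. The 24 genes with at least 8 CpG sites, the median of all genes, had a median of 30.4 CPM (10.9 to 204.5). The 11 genes below that number had a median of 18.4 CPM (7.92 to 49.85). Col15a1, Col6a1 and Col3a1 were high for their CpG content, with 8, 3 and 0 CpG sites.

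**Figure D2:**
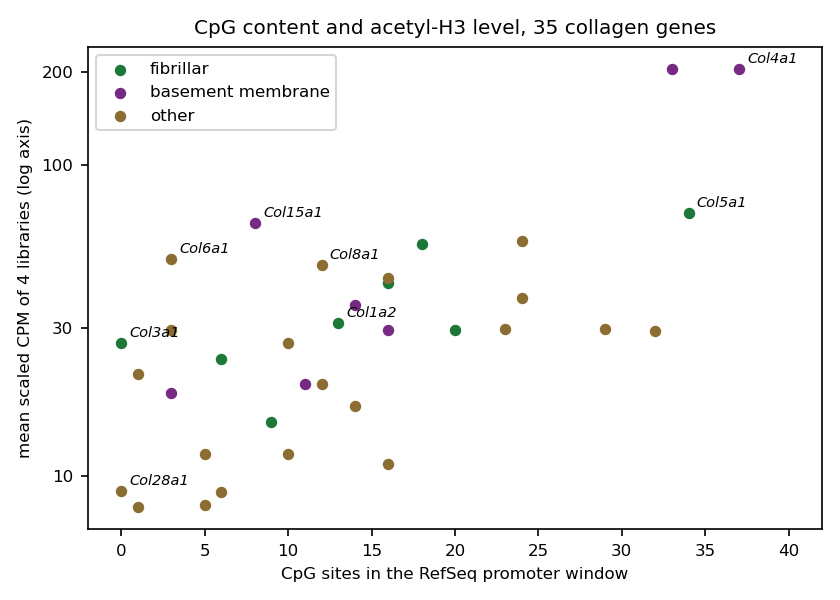
CpG sites in the RefSeq promoter window (x axis; the richest window of each gene) against mean scaled CPM of the 4 libraries (log axis) for 35 collagen genes, coloured by class. Col4a1, Col4a2 and Col5a1 lie at the upper right, and Col28a1 with 0 CpG sites lies at the lower left.

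The effect of pressure overload without the inhibitor was read from TAC Veh over Sham Veh. Most collagen promoters had a higher scaled count in the TAC Veh library, 36 of 43, with a median log2 ratio of 0.13, against −0.00055 over all genes tested. The counting interval (exact 95%, Clopper-Pearson) lay wholly above 0 for 12 of 43 collagens, where 5.82% of all genes did, and wholly below 0 for 1, where 7.20% did. Promoters that differed 1.5-fold or more, with an interval excluding 1, were called apart. By that rule 1 of 43 was higher, against 1.93% of all genes, and 0 were lower, against 0.582%. Scaling by receptor promoters put the median of all genes at −0.25 and that of collagens at −0.11.

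Type I collagen led the fibrillar class in this comparison. Col1a1 had 334 counts in TAC Veh against 254 in Sham Veh, a log2 ratio of 0.49 (0.25 to 0.73). Its partner chain Col1a2 had 236 against 189 counts (0.41, 0.13 to 0.70). With receptor-promoter scaling Col1a1 was at 0.24 (0.0029 to 0.48). Of the 3 type V chains, Col5a1 and Col5a2 were higher and Col5a3 was not. Col5a2 had 275 counts in TAC Veh against 227 in Sham Veh (0.37, 0.11 to 0.63), and Col5a1 had 532 against 474 (0.26, 0.08 to 0.44). Col5a3 had 179 counts in TAC Veh against 207 in Sham Veh (−0.12, −0.41 to 0.18). Col3a1, for type III collagen of the same fibrils, had 189 counts in TAC Veh against 177 in Sham Veh (0.19, −0.12 to 0.49), an interval that includes no difference. Over the 11 fibrillar genes the median was 0.19, from −0.26 for Col11a1 to 0.49 for Col1a1.

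Among basement membrane collagens, Col15a1, which bridges basement membranes and fibrils, had 552 counts in TAC Veh against 441 in Sham Veh (log2 ratio 0.42, 0.23 to 0.60). The shared Col4a1 and Col4a2 promoter was slightly higher (0.14, 0.03 to 0.25, for each gene). The pair Col4a3 and Col4a4 was at 0.13 and 0.13, and Col4a5 and Col4a6 were at 0.25 and 0.29, all 4 with intervals that include 0. Col18a1, the multiplexin whose fragment is endostatin, had 202 counts in TAC Veh against 215 in Sham Veh (0.0026, −0.28 to 0.29). The class median was 0.14, and with type IV alone it was also 0.14.

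In the other collagens the median was 0.07, from −0.48 for Col6a6 to 0.64 for Col28a1. Type VI chains were split, with 4 of 6 ratios above 0 and 2 below. Col6a3 had 218 counts in TAC Veh against 184 in Sham Veh (0.34, 0.05 to 0.63), and Col6a1 had 366 against 329 (0.25, 0.03 to 0.47). Col6a2 had 307 against 291 counts (0.17, −0.07 to 0.41). Col8a1, a short-chain collagen of vessel walls, had 368 against 325 (0.27, 0.05 to 0.49), and Col8a2 was at 0.36 (0.07 to 0.66). The promoter called apart was Col28a1, with 67 counts in TAC Veh against 46 in Sham Veh (0.64, 0.07 to 1.21). It lies at the background level and was 0.54 and no longer apart with scaling by loess on mean count. Col6a6 was the member with an interval below 0, at 78 against 116 counts (−0.48, −0.91 to −0.05).

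Of the collagens, 9 were set out by name as those of heart interstitium, namely Col1a1, Col1a2, Col3a1, Col5a1, Col5a2, Col6a1, Col6a2, Col6a3 and Col8a1. They were chosen with earlier results of these data known. Their median log2 ratio in TAC Veh over Sham Veh was 0.27, with 7 of 9 intervals above 0 and 0 below. The remaining 34 collagens had a median of 0.08, with 5 intervals above 0 and 1 below. With loess scaling the 9 had a median of 0.28 and again 7 intervals above 0, and with receptor-promoter scaling a median of 0.03 and 1 interval above 0.

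**Figure D3:**
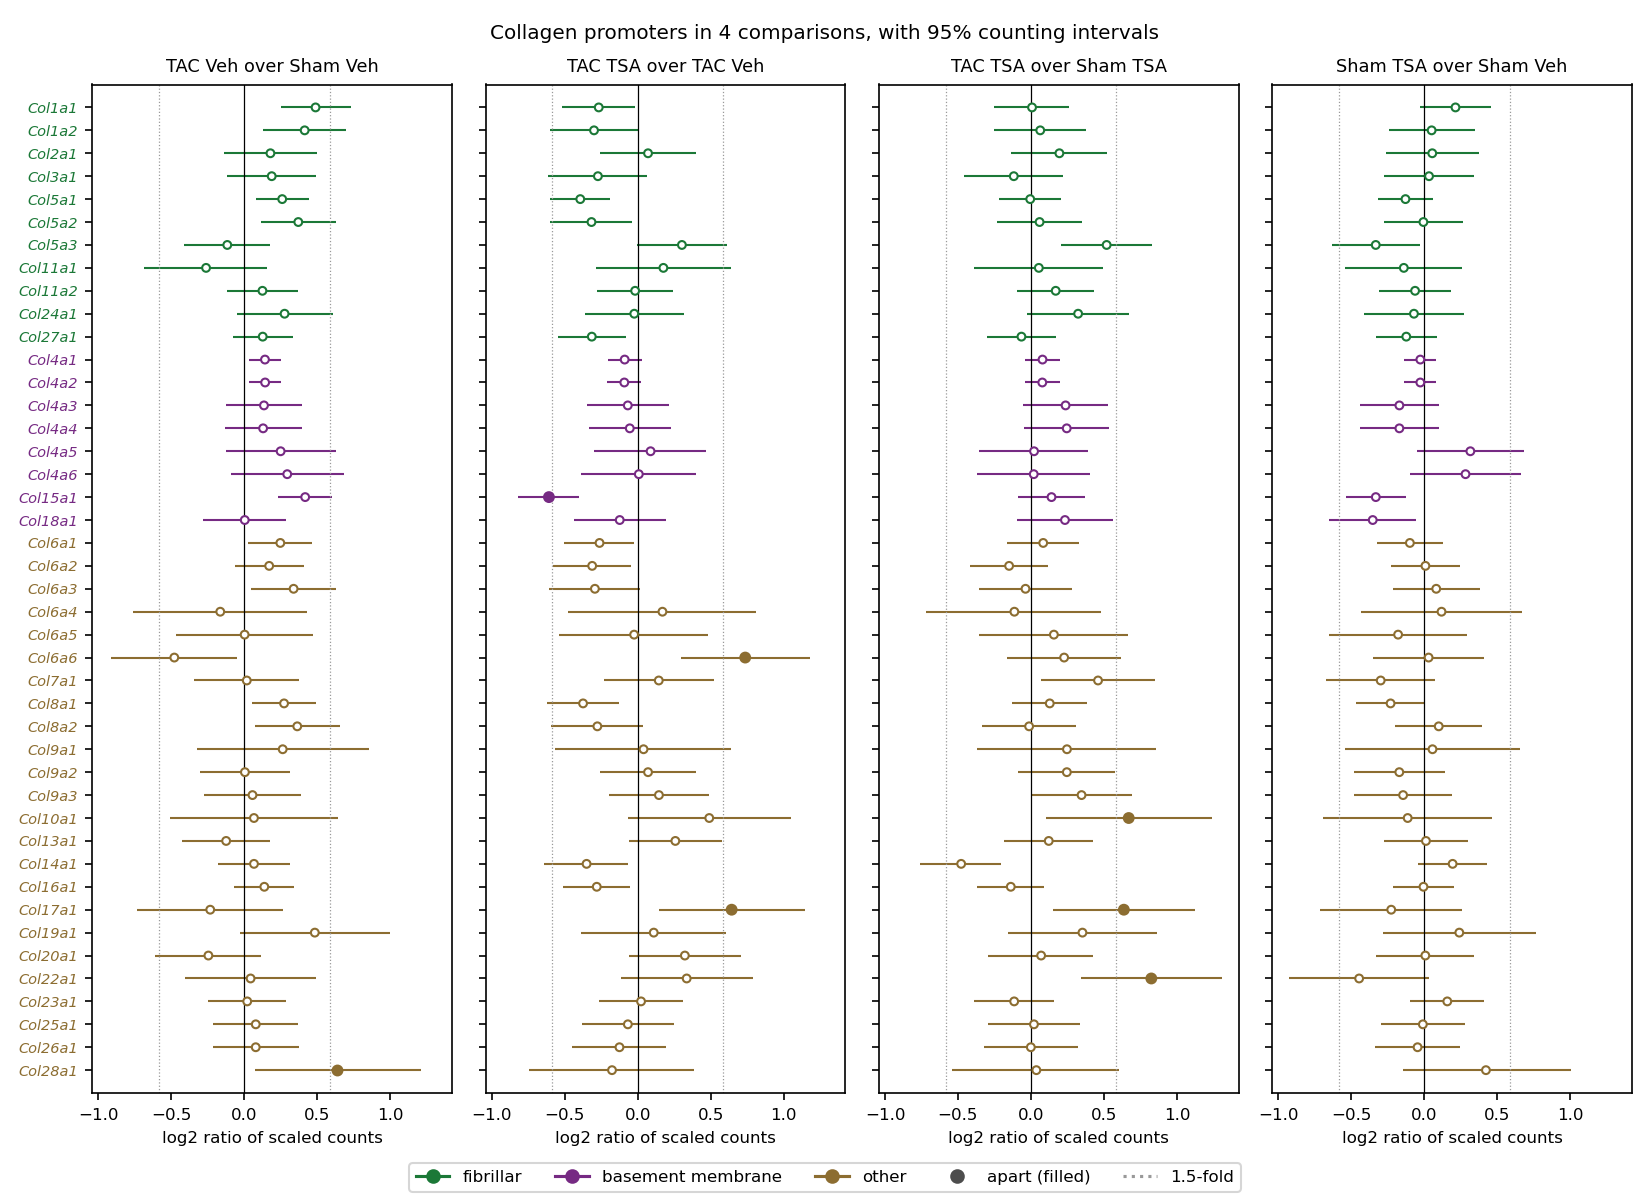
Log2 ratio of scaled counts (x axis) with its 95% counting interval for the 43 collagen promoters, by class and in the 4 comparisons. Filled points are at least 1.5-fold with an interval excluding 1, and dotted lines mark 1.5-fold. In TAC Veh over Sham Veh 36 of 43 points lie right of 0.

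TAC TSA over TAC Veh asked what the inhibitor did in the overloaded ventricle. All 9 interstitial collagens, a list chosen with earlier results of these data known, had ratios below 0. Col15a1 was the lowest of the 43, and Col6a6 and Col17a1 were the highest. Over all 43 the median log2 ratio was −0.05, against 0.0014 for all genes. The interval was below 0 for 10 collagens, where 10.4% of all genes were, and above 0 for 2, where 8.13% were. Apart and lower was 1 of 43, against 0.342% of all genes, and apart and higher were 2, against 4.06%. This comparison divides by the same TAC Veh library that stood on top in the preceding one, so opposite signs between them are not separate evidence.

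Col15a1 had 287 counts in TAC TSA against 552 in TAC Veh, 0.66-fold after scaling (log2 ratio −0.61, −0.82 to −0.40). It was at −0.52 with loess scaling, −0.57 by total count and −0.58 with a minimum mean of 50 counts, each short of 1.5-fold, and at −0.99 with receptor-promoter scaling. Other basement membrane collagens lay near 0. Col4a1 and Col4a2 were each at −0.09 (−0.21 to 0.03), Col4a3 at −0.07, Col4a4 at −0.05, Col4a5 at 0.09, Col4a6 at 0.01 and Col18a1 at −0.12 (−0.44 to 0.19). The class median was −0.08.

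The fibrillar class had the lowest median, −0.27, with 4 of 11 intervals below 0 and 0 above. Col5a1 had 321 counts in TAC TSA against 532 in TAC Veh (log2 ratio −0.39, −0.60 to −0.19). Col5a2 had 175 against 275 (−0.32, −0.60 to −0.04) and Col1a1 had 220 against 334 (−0.27, −0.52 to −0.02). Col1a2 had 152 against 236 (−0.30, −0.60 to 0.0010) and Col3a1 124 against 189 (−0.27, −0.61 to 0.06), both with intervals that reach 0. With loess scaling Col1a1 was at −0.21 (−0.46 to 0.04). Col27a1 was also lower (−0.31, −0.55 to −0.08), whereas Col5a3 was at 0.30 (−0.01 to 0.61).

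Of the 6 type VI chains 4 had ratios below 0 and 2 above. Col6a2 had 196 counts in TAC TSA against 307 in TAC Veh (−0.31, −0.58 to −0.05), Col6a1 242 against 366 (−0.26, −0.50 to −0.02) and Col6a3 141 against 218 (−0.29, −0.61 to 0.02). Col8a1 had 225 against 368 (−0.37, −0.62 to −0.13). The fibril-associated collagens Col14a1 (−0.35, −0.64 to −0.07) and Col16a1 (−0.28, −0.51 to −0.05) were lower too. Across the 9 interstitial collagens the median was −0.30 with 6 intervals below 0, and −0.31 with 5 below 0 under loess scaling. Under receptor-promoter scaling their median was −0.68, with 9 of 9 apart and lower. That scaling also moved the median of all genes below 0. The share of all genes apart and lower under it is not given here, so the count is not set apart from that shift. Under TMM scaling the other 34 had a median of 0.02. The 9 were chosen with earlier results of these data known, so this contrast is a description only.

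The members apart and higher in TAC TSA over TAC Veh were Col6a6 and Col17a1. Col6a6, a type VI chain, had 103 counts in TAC TSA against 78 in TAC Veh (0.74, 0.30 to 1.18), and Col17a1, the hemidesmosome collagen of skin, had 78 against 63 (0.64, 0.15 to 1.15). With loess scaling Col17a1 was at 0.44 and not apart, while Col6a6 was at 0.60 and still apart. Col6a6 was no longer apart when its RefSeq IDs were averaged (0.39, −0.09 to 0.87) or with receptor-promoter scaling (0.35, −0.09 to 0.80), and its other ID was at −0.08. Scaling on receptor promoters placed 14 of 43 apart and lower with a median of −0.44, and moved the median of all genes to −0.38.

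**Figure D4:**
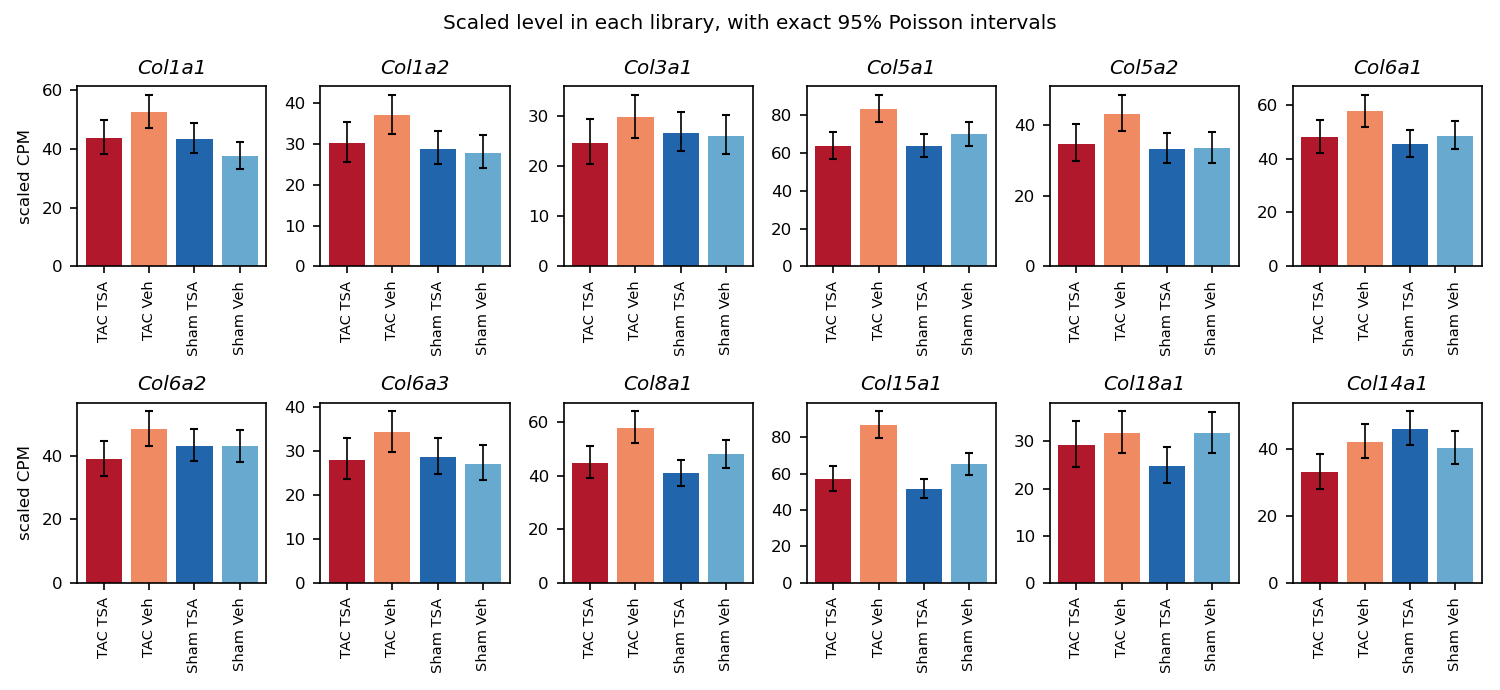
Scaled CPM of 12 collagen promoters in the 4 libraries (bars from 0, error bars exact 95% Poisson intervals for counting error, 1 library each). TAC Veh has the highest bar in every panel but that of Col14a1, where Sham TSA is highest.

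TAC TSA over Sham TSA compared overload between mice that all received the inhibitor, and it shares the TAC TSA library with the comparison before it. The 9 interstitial collagens had a median log2 ratio of 0.0072 under TMM scaling, with 0 intervals on either side of 0. Under receptor-promoter scaling their median was −0.59, with 9 of 9 intervals below 0 and 5 apart and lower, where the median of all genes was −0.61. Col1a1 had 220 counts in TAC TSA against 301 in Sham TSA (0.0072, −0.25 to 0.26), Col1a2 was at 0.06 (−0.25 to 0.38), Col5a1 at −0.01 (−0.22 to 0.21) and Col6a1 at 0.08 (−0.16 to 0.33). Col3a1 was at −0.12 (−0.46 to 0.22). Over all 43 the median was 0.08, against −0.01 for all genes. Intervals lay above 0 for 5 collagens, where 10.3% of all genes did, and below 0 for 1, where 13.8% did.

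Of the 43, 3 were apart and higher in TAC TSA than in Sham TSA, against 7.16% of all genes, and 0 apart and lower, against 0.206%. Col22a1, a collagen of tissue junctions such as that of muscle and tendon, had 85 counts in TAC TSA against 66 in Sham TSA (0.82, 0.34 to 1.31). Col10a1, a growth plate collagen, had 59 against 51 (0.67, 0.10 to 1.24) and Col17a1 had 78 against 69 (0.64, 0.15 to 1.12). All 3 have few counts, and with loess scaling they were at 0.57, 0.30 and 0.35 and none was apart. Col5a3 (0.52, 0.20 to 0.83) and Col7a1, the anchoring fibril collagen (0.46, 0.07 to 0.85), had intervals above 0. Col14a1 was the member below, with 166 counts in TAC TSA against 318 in Sham TSA (−0.48, −0.76 to −0.20), and −0.42 (−0.70 to −0.15) with loess scaling. Basement membrane collagens had a median of 0.11, with Col15a1 at 0.14 (−0.09 to 0.37) and the Col4a1 and Col4a2 promoter at 0.08 (−0.04 to 0.20).

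Sham TSA over Sham Veh asked what the inhibitor did without overload. The median was −0.03, against 0.0075 for all genes, and 0 of 43 were apart in either direction, where 0.582% of all genes were apart and higher and 0.578% apart and lower. Intervals were below 0 for 3 collagens, where 3.79% of all genes were, and above 0 for none, where 5.22% were. Col15a1 had 358 counts in Sham TSA against 441 in Sham Veh (−0.33, −0.54 to −0.13). Col18a1 had 172 against 215 (−0.35, −0.65 to −0.06) and Col5a3 had 168 against 207 (−0.33, −0.63 to −0.03). Col1a1 was at 0.21 (−0.03 to 0.46), Col3a1 at 0.03 (−0.27 to 0.34), Col5a1 at −0.13 (−0.32 to 0.06) and Col8a1 at −0.23 (−0.47 to 0.0034). The class medians were −0.06 for fibrillar, −0.10 for basement membrane and 0.00085 for other collagens.

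An additive model of surgery and drug over all 4 libraries was the only test. Its 1 residual degree of freedom is the interaction of surgery with drug. The spread was shared across genes and not estimated for each, so p-values do not reflect the spread of a given gene between mice. For the drug, 1 of 43 collagens passed, Col15a1, lower with TSA (edgeR quasi-likelihood test, log2 fold change −0.47 ± 0.11 SE, adjusted p = 0.0209), lower in TSA for both surgeries. Over all genes 0.206% were called higher and 0.00876% lower. Its call was kept by limma-voom (adjusted p = 0.0177) and without the count filter (0.0273) and lost with loess scaling (adjusted p = 0.113), receptor-promoter scaling (0.866) and DESeq2 (1.00). Col8a1 (−0.30, adjusted p = 0.841) and Col5a1 (−0.26, adjusted p = 0.907) had unadjusted p under 0.05 and did not pass. Over all genes 4.27% had an unadjusted p under 0.05 for the drug in edgeR. For surgery, 0 of 43 collagens passed in edgeR (0.0131% of all genes were called higher and 0.0219% lower). In limma-voom 0 passed (2 at an unadjusted p under 0.05), and in DESeq2 0 passed (0 unadjusted). Over all genes the unadjusted p was under 0.05 for 9.32% in edgeR, 9.40% in limma-voom and 0.206% in DESeq2. Among the collagens, 2 had an unadjusted p under 0.05 in edgeR. These 2 were Col15a1 (0.29 ± 0.11 SE, adjusted p = 0.362) and Col1a1 (0.25 ± 0.13 SE, adjusted p = 0.521).

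Fibrillar and basement membrane collagens differed most in TAC TSA over TAC Veh, where the fibrillar median minus the basement membrane median was −0.19 (−0.13 with loess scaling). The difference was 0.05 for TAC Veh over Sham Veh and −0.05 for TAC TSA over Sham TSA. For Sham TSA over Sham Veh it was 0.04. Summed over the class, fibrillar promoters held 395 CPM in TAC TSA, 448 in TAC Veh, 372 in Sham TSA and 385 in Sham Veh. Basement membrane promoters held 612 CPM in TAC TSA, 673 in TAC Veh, 569 in Sham TSA and 597 in Sham Veh. This sum holds both genes of each type IV pair. Col4a1 and Col4a2, nearly the same reads, gave 218.9 and 219 CPM in TAC Veh, so the sums do not rank the classes. Other collagens held 616 CPM in TAC TSA, 646 in TAC Veh, 590 in Sham TSA and 599 in Sham Veh. The TAC Veh library had the highest sum in each of the 3 classes under TMM scaling.

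**Figure D5:**
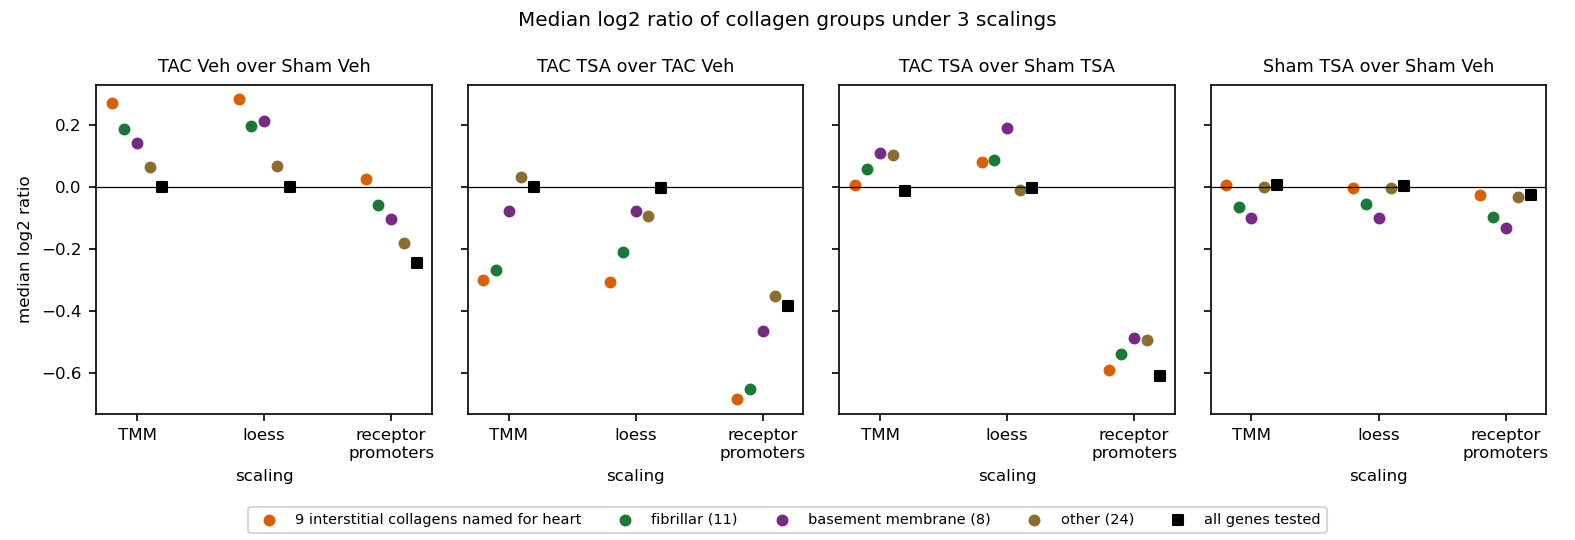
Median log2 ratio (y axis) of the 9 interstitial collagens, the 3 classes and all genes tested under TMM, loess and receptor-promoter scaling (x axis), in the 4 comparisons. In TAC Veh over Sham Veh the interstitial collagens, chosen with earlier results of these data known, lie above all genes under each scaling, at 0.27, 0.28 and 0.03.

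Genes that process, break down, bind or regulate collagen were read from lists. Of 27 processing genes, 1 was apart and higher in TAC Veh over Sham Veh, the prolyl hydroxylase subunit P4ha3 (106 against 73 counts; 0.63, 0.19 to 1.08), and 0 lower, with a list median of 0.05, where 1.93% of all genes were apart and higher. In TAC TSA over TAC Veh 1 was apart and lower, the lysyl oxidase Loxl3 (318 against 613 counts; −0.61, −0.81 to −0.41), and 0 higher, with a median of −0.17 and 13 of 27 intervals below 0. Over all genes 0.342% were apart and lower in that comparison and 10.4% had an interval below 0. Of 11 breakdown genes, 2 were apart and higher in TAC Veh over Sham Veh. These were the inhibitor Timp1 (108 against 70 counts; 0.72, 0.27 to 1.17) and the collagenase Mmp8 (86 against 57; 0.69, 0.19 to 1.20), and the list median was 0.08. Timp1 was also the 1 apart and lower in TAC TSA over TAC Veh (50 against 108; −0.78, −1.29 to −0.28). Of 8 collagen receptors 0 were apart in either of these. The platelet receptor Gp6 was apart in TAC TSA over Sham TSA (53 against 43 counts; 0.76, 0.15 to 1.38), as were 7.16% of all genes in the higher direction. Gp6 lies at the background level, where the 95th percentile of receptor promoters was 50 counts in TAC TSA and 51 in Sham TSA. Of 13 regulators such as TGF-beta ligands and SMADs 0 were apart in any comparison.

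Marker promoters of cell types also differed between libraries, not all in the direction of the collagens, and their part in these results was not tested. In bulk tissue, fewer cells of a type and less acetylation per cell cannot be told apart. The 8 fibroblast marker promoters summed to 247 CPM in TAC TSA, 277 in TAC Veh, 246.5 in Sham TSA and 235 in Sham Veh. Activated fibroblast markers, 5 genes, summed to 114 CPM in TAC TSA, 133 in TAC Veh, 116 in Sham TSA and 107 in Sham Veh. Postn, the periostin gene of activated fibroblasts, had 86 counts in TAC TSA, 196 in TAC Veh, 128 in Sham TSA and 121 in Sham Veh. The other activated fibroblast markers, Acta2, Cthrc1, Fap and Tnc, were apart in no comparison. In TAC Veh over Sham Veh they were at 0.18, 0.21, 0.20 and 0.19, with intervals that include 0. In TAC TSA over TAC Veh they were at −0.02, 0.05, −0.27 and −0.19, also with intervals that include 0. The 10 cardiomyocyte markers summed to 664 CPM in TAC TSA, 398 in TAC Veh, 665 in Sham TSA and 574 in Sham Veh, with the low value in TAC Veh where the collagen sums were high. Leukocyte markers, 6 genes, were at 104 CPM in TAC TSA, 139 in TAC Veh, 136.5 in Sham TSA and 112 in Sham Veh. Endothelial markers, 8 genes, were at 709 CPM in TAC TSA, 676 in TAC Veh, 740 in Sham TSA and 766 in Sham Veh. Smooth muscle and pericyte markers, 7 genes, were at 255 CPM in TAC TSA, 285.5 in TAC Veh, 253 in Sham TSA and 258 in Sham Veh. No marker promoter was at 0 counts in any library.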

How the data were processed

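The authors deposited a table of raw promoter read counts per RefSeq ID, whole numbers that were not normalised, with 1 column per library. The build is mm9, and BWA 0.5.9 and MACS 1.4.1 are listed without a role, per the submitters' processing notes. How promoters were delimited and counted, and whether duplicates or input were removed, is not given in the sources used here. Region lists of the same study were not used here, because they could not be tied to collagen genes without an mm9 annotation.

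Of 31594 IDs, 31115 (98.5%) matched a symbol of the GRCm38.p6 RefSeq table, and the other 479, with 1.11% of the counts, were left out. Libraries were scaled by TMM (edgeR 4.0.16, R 4.3.3) over the 22835 genes with a mean of at least 10 counts. Exact 95% conditional (Clopper-Pearson) intervals cover counting error only, and PCR reads without molecular identifiers are not independent molecules. The additive fit was edgeR's quasi-likelihood test with Benjamini-Hochberg adjustment over all genes, with a threshold of 0.05, and its SE was taken from the fold change and the F statistic. Alternatives to that fit were limma-voom in limma 3.58.1 and DESeq2 1.42.0. For the ratios they were DESeq2 size factors, total count, loess on mean count, receptor promoters as the scale, no filter or a mean of 50, the mean over RefSeq IDs, and a 2-fold threshold.

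Genes given in full were the 9 interstitial collagens, type IV, Col15a1, Col18a1 and any member apart or called. Col5a3, Col7a1, Col8a2, Col14a1, Col16a1, Col27a1 and Col11a1 were added after their values were seen. The members, classes and lists were chosen with earlier results of these data known. Ratios and intervals were computed in Python 3.11.15 (scipy 1.17.1).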

Additional observations from a re-analysis of the deposited data

How the results depend on the processing

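DESeq2 size factors, no count filter and counting each type IV pair once, an alternative chosen after seeing the data, left the numbers of collagens apart as they were. With DESeq2 size factors, intervals above 0 numbered 3 in TAC TSA over TAC Veh, against 2, and 6 in TAC TSA over Sham TSA, against 5. Without the filter, 11 were below 0 in TAC TSA over TAC Veh, against 10. By total count, 0 collagens were apart and lower in TAC TSA over TAC Veh and the TAC TSA over Sham TSA median was 0.15. Loess scaling left 0 apart and higher in TAC Veh over Sham Veh, 1 higher and 0 lower in TAC TSA over TAC Veh and 0 higher in TAC TSA over Sham TSA. It moved the fibrillar minus basement membrane median in TAC Veh over Sham Veh to −0.019, against 0.05 in the main scaling. Receptor-promoter scaling gave 0 higher and 1 lower in TAC Veh over Sham Veh (median −0.11), 0 higher and 14 lower in TAC TSA over TAC Veh (median −0.44), and 0 higher and 12 lower in TAC TSA over Sham TSA (median −0.52). It put Col1a1 in TAC TSA over Sham TSA at −0.59, against 0.0072. In each of these comparisons it also moved the median of all genes below 0, so its counts of lower collagens go with a shift of all genes. A mean of at least 50 counts kept 42 collagens and left 0 lower in TAC TSA over TAC Veh and a TAC TSA over Sham TSA median of 0.13. The mean over RefSeq IDs left 1 higher in TAC TSA over TAC Veh, and a 2-fold threshold left 0 apart in every comparison. With type IV alone as basement membrane, the class difference in Sham TSA over Sham Veh was −0.036. The 1 collagen called for the drug became 0 with loess scaling, receptor-promoter scaling and DESeq2. The cause of these changes was not tested. No paired analysis was possible because each group has 1 library and the labels give no replicate numbers. For the same reason no replicate could be left out, and the additive fit keeps no residual degree of freedom without any 1 library. Depth limits the calls, as in Col10a1, whose interval in TAC TSA over Sham TSA ran from 0.10 to 1.24 at 59 and 51 counts.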

Other observations

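Of the 43 collagen genes, 6 have several RefSeq IDs, and in 2 of them the IDs have different counts. Col18a1 has NM_009929, used above, and NM_001109991. In Sham TSA over Sham Veh, NM_009929 was at −0.35 (−0.65 to −0.06) and NM_001109991, with 151 counts in Sham TSA and 144 in Sham Veh, at 0.04 (−0.30 to 0.38). In TAC TSA over TAC Veh, NM_009929 was at −0.12 and NM_001109991 at 0.23 (−0.11 to 0.58). Col6a6 has NM_001102607, used above, and NM_172927. In TAC TSA over TAC Veh, NM_001102607 was at 0.74 (0.30 to 1.18) and NM_172927, with 54 counts in TAC TSA and 72 in TAC Veh, at −0.08 (−0.62 to 0.45). The differences between IDs of a gene were not tested.

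The log2 ratio for TSA in TAC mice minus that in sham mice was −0.48 for Col1a1 (95% normal approximation from the counts, −0.82 to −0.14) and −0.54 for Col14a1 (−0.91 to −0.18). It was 0.64 for Col5a3 (0.22 to 1.06), 0.71 for Col6a6 (0.15 to 1.27), 0.87 for Col17a1 (0.20 to 1.54) and 0.78 for Col22a1 (0.15 to 1.41). Col15a1 was at −0.28 (−0.56 to 0.01). These differences depend on the scaling of all 4 libraries. Under receptor-promoter scaling Col1a1 was at −0.83 (−1.18 to −0.49), Col5a3 at 0.28 (−0.14 to 0.70), Col6a6 at 0.36 (−0.21 to 0.92), Col17a1 at 0.52 (−0.15 to 1.19), Col22a1 at 0.43 (−0.20 to 1.06) and Col15a1 at −0.63 (−0.92 to −0.34). The intervals compare single libraries and were adjusted for no number of genes. They were given after the values were seen.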
